A study of Arabidopsis thaliana with 24 samples.

Results

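The 9 loci described here are Arabidopsis genes that are known to be induced by low oxygen and whose products have mostly not been assigned a function. They are AT4G10270, AT4G33560, AT1G33055, AT5G10040, AT4G24110, AT3G27220, AT1G19530, AT5G66985 and AT1G76650, the last of which is CML38. They were taken by locus identifier from a table of read counts for 21407 loci, and all 9 were found there. The set was selected on measured values, with earlier results of the same libraries known: the difference between the genotypes at 0 h and the rise at 1 h. Every comparison that uses a 0 h library is therefore given as a description, without a test.

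The libraries came from whole seedlings, 2 weeks old and of the Col-0 ecotype. The WT groups were wild type, and the OX groups overexpressed ELENA1, a long noncoding RNA; the labels name neither the promoter that drives it nor the number of lines, and the ELENA1 locus was not analysed here. Both genotypes were sampled untreated at 0 h and after 1, 6 and 12 h in liquid medium with 5 µM elf18, the bacterial peptide perceived by the receptor kinase EFR. Each of these 8 groups had 3 biological replicates, which makes 24 libraries. No group was moved to liquid medium without the peptide, so the peptide, the transfer from solid medium and the hours elapsed cannot be told apart, and the labels name no low-oxygen treatment. The replicates of a condition were combined in a single well for sequencing, per the labels, so treatment time and well cannot be told apart; whether both genotypes shared a well is not stated. In RNA from whole seedlings, fewer cells that express a gene and less RNA per cell cannot be told apart either.

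Plants sense oxygen through the group VII ethylene response factors. In air, the plant cysteine oxidases PCO1 and PCO2 oxidise the N terminus of these factors, which marks them for degradation; when oxygen is short the factors persist and switch on a core set of genes. That set holds PDC1 and ADH1 of ethanol fermentation, the haemoglobin HB1, the repressors HRA1 and LBD41, both PCO genes themselves and loci such as the 9 described here. CML38 encodes a calmodulin-like calcium sensor that gathers in cytoplasmic granules under low oxygen, AT3G27220 encodes a kelch-repeat protein, and AT4G10270 and AT4G33560 encode small proteins of a family annotated as wound-responsive. The remaining 5 products are listed as unknown proteins in the authors' table, and RefSeq gives 2 of them names that the authors' table does not carry, a glutamate dehydrogenase for AT4G24110 and a subunit of DNA polymerase epsilon for AT1G19530. Those names are repeated here as annotation only.

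Total counts per library ran from 18767661 to 85230211, with replicate 3 the shallowest of every group (18767661 to 23645600). In 3 libraries counts depended on transcript length in another way than in the rest of their group. Replicate 1 of OX at 1 h had a slope of -0.372 log2 units per doubling of length, replicate 1 of OX at 6 h one of -0.106 and replicate 3 of WT at 12 h one of -0.29. Levels are given as CPM, counts relative to a library size that was scaled by TMM. Of the 21407 loci, 21015 had enough counts to be tested, and all 9 were among them; AT5G10040 reached that minimum only through its 1 h libraries and those of OX at 0 h.

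The 9 loci were mostly short and unspliced. In the RefSeq annotation of TAIR10.1, 7 of 9 had a single exon, against 17% of all loci counted, and their median spliced length was 928 nucleotides against 1699. Their median protein length was 95 amino acids against 379, with the kelch-repeat protein AT3G27220 as the longest at 426 and the AT1G33055 product as the shortest at 66. The coordinates below are those of TAIR10.1, since the count table itself holds none.

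Each locus was given a promoter window of 300 bases, from 250 before to 50 after the annotated start of its longest transcript. The windows were searched on both strands for the GT motif (TGGTTT, reverse AAACCA) and the GC motif (GCCCC, reverse GGGGC), which together make up the anaerobic response element known from the ADH1 promoter. The windows printed here are those with the most matches (AT5G10040), with both motifs (AT1G33055), of the wound-responsive locus AT4G10270, of CML38 and, for contrast, of AT5G66985, which held neither motif. GT and GC motifs are in capitals, all sequences run 5′ to 3′ on the strand of the gene, and they are credited to RefSeq, TAIR10.1: AT5G10040 lies at chr5:3143473-3143772 on the + strand, AT1G33055 at chr1:11972531-11972830 on the - strand, AT4G10270 at chr4:6374484-6374783 on the + strand, AT1G76650 at chr1:28767663-28767962 on the - strand and AT5G66985 at chr5:26743029-26743328 on the + strand.
AT5G10040: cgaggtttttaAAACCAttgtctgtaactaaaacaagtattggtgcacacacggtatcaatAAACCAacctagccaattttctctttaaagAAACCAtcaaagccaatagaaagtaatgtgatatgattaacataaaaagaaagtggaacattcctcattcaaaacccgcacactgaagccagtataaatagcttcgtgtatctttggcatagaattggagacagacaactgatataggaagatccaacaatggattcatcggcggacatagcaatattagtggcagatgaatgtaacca
AT1G33055: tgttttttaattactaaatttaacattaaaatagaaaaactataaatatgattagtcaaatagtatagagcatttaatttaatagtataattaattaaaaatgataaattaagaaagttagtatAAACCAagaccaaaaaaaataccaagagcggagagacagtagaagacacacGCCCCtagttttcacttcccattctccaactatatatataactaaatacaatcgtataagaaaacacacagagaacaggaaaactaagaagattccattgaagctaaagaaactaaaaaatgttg
AT4G10270: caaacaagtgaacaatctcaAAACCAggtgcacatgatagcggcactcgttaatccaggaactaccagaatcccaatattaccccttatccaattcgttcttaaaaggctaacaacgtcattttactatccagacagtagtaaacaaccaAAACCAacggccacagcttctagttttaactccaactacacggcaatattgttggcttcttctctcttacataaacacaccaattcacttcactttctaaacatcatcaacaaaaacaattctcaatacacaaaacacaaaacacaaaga
AT1G76650: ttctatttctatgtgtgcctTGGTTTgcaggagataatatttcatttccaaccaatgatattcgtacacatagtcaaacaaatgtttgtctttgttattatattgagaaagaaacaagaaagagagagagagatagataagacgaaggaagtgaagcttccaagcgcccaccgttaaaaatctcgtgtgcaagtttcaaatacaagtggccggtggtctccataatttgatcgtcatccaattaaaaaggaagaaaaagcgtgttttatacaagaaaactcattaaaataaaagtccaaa
AT5G66985: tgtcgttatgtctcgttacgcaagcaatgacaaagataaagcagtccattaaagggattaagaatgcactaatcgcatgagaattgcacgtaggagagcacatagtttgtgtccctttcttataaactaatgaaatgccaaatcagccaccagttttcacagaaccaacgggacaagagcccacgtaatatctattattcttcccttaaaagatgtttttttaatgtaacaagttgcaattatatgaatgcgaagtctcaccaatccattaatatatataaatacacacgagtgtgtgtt

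A GT motif was present in 7 of the 9 windows, against 32.2% of the windows of all 21329 loci examined and 20 of 42 other low-oxygen loci (47.6%). A count of 2 or more GT motifs was found in 3 of 9 windows, those of AT5G10040 with 3 and of AT4G10270 and AT3G27220 with 2 each, against 7.61% of all windows. The windows of AT1G19530 and AT5G66985 held no GT motif. The GC motif occurred in 1 of 9 windows (AT1G33055) and in 5.89% of all. Of motifs bound by other factors, the GCC box (GCCGCC) was in 1 of 9 (AT4G33560; 2.7% of all), the G-box (CACGTG) in 1 of 9 (AT3G27220; 8.57% of all) and the W-box core (TTGAC) in 4 of 9 (51.2% of all). These matches describe letters in a window and not bound sites. The W-box core, the recognition element of the WRKY factors of the immune response, overlapped the GT motif in none of the 9 windows.

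**Figure D1:**
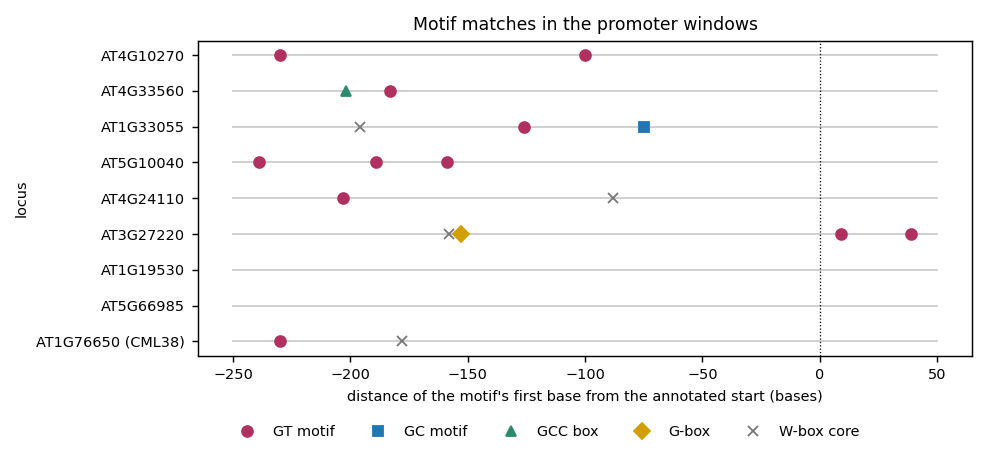
Positions of motif matches in the promoter windows of the 9 loci. The x axis is the distance in bases of a match's first base from the annotated start (dotted line), and each row is a locus. GT motifs appear in 7 of the 9 rows, at -230 and -100 in AT4G10270 and at -239, -189 and -159 in AT5G10040, while the rows of AT1G19530 and AT5G66985 are empty.

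Before treatment, 7 of the 9 loci were at least 2-fold higher in OX than in WT, against 1.11% of all loci tested, and this is a difference that was known when the loci were chosen. The 3 libraries of each genotype did not overlap, with OX higher, for 8 of 9 (19.6% of all loci). The median log2 difference was 1.90, against 0.03 over all loci. CML38 was the locus whose libraries overlapped, and AT1G19530 had a narrow gap. The differences between the genotypes are log2 fold changes from the fit.

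The wound-responsive locus AT4G10270 stood at 9.88, 1.22 and 3.23 CPM in the WT libraries and at 20.4, 24.2 and 26.9 CPM in OX. Its relative AT4G33560 stood at 3.42, 2.67 and 1.1 CPM in WT and at 12.6, 15.3 and 19.9 CPM in OX. In both loci the lowest OX library was above the highest WT library, and the log2 differences were 2.27 and 2.61. AT1G33055, which encodes a short unknown protein, stood at 10.2, 3.07 and 4.10 CPM in WT and at 22.1, 28.0 and 28.7 CPM in OX, a log2 difference of 2.14. WT replicate 1 was the highest of its group in all 3 of these loci, and in the first and the last it was more than 2-fold above both other WT libraries.

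AT5G10040, another short unknown protein, was close to silent in untreated WT, with 5, 14 and 0 counts in the 3 libraries, and had 47, 107 and 30 counts in OX. In CPM this was 0.0868, 0.231 and 0 against 0.807, 2.39 and 1.46, a log2 difference of 3.51. The kelch-repeat gene AT3G27220 stood at 9.91, 9.04 and 7.03 CPM in WT and 30.8, 33.5 and 33.9 CPM in OX, a log2 difference of 1.90. Both loci had a clear gap between the genotypes. AT4G24110 stood at 20.1, 10.4 and 16.3 CPM in WT and at 29.7, 33.7 and 39.7 in OX (log2 difference 1.14). AT5G66985 stood at 2.59, 2.76 and 2.58 CPM in WT and at 6.33, 7.22 and 9.64 in OX (1.51). For these 4 loci too, every OX library was above every WT library.

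CML38, the calcium sensor, did not share this difference. It stood at 38.3, 29.8 and 39.9 CPM in WT and at 33.7, 35.9 and 36.3 CPM in OX, so the groups overlapped, with a log2 difference of -0.03. AT1G19530 stood at 31.6, 53.1 and 53.3 CPM in WT and at 54.6, 54.2 and 54.9 in OX, with a log2 difference of 0.25. Its groups were separated by less than 1 CPM, and WT replicate 1 alone was low.

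The untreated WT libraries were uneven for several of these loci. The highest of the 3 libraries was 8.09 times the lowest for AT4G10270, 3.33 times for AT1G33055, 3.10 times for AT4G33560 and 1.94 times for AT4G24110, where the median over all loci was 1.19. In untreated OX the same ratio lay between 1.01 and 2.97 for the 9 loci. Leaving out WT replicate 1 moved the log2 ratio of the mean CPM of AT4G10270 from 2.32 to 3.42, and leaving out WT replicate 2 moved it to 1.86. For AT5G10040, whose WT values rest on 19 counts, the same ratio moved from 3.87 to between 3.29 and 5.16. Summed levels of the leaf markers ran from 15580 to 26930 CPM in untreated WT and from 21750 to 28170 in OX, those of the root markers from 180 to 216 and from 170 to 187, and those of 10 touch and wound genes from 1470 to 1808 and from 1795 to 1968. No marker was at 0 in any library, and their part in the difference was not tested.

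After 1 h of treatment all 9 loci stood far above their 0 h level in both genotypes, and the libraries of the 2 genotypes overlapped for all but AT4G24110. All 9 were at least 2-fold higher than at 0 h in WT (10.4% of all loci) and in OX (10.8%), again as a description. The log2 rise in WT ran from 3.15 to 9.29 with a median of 5.48, and in OX from 2.67 to 5.60 with a median of 3.34. Each rise is measured from the genotype's own 0 h libraries.

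AT4G10270 reached 234, 221 and 208 CPM in WT and 261, 222 and 216 in OX. CML38 reached 500, 526 and 397 CPM in WT and 457, 439 and 361 in OX. AT5G10040, near 0 before, reached 89.0, 83.0 and 78.1 CPM in WT, or 4089, 2673 and 1373 counts, and 81.9, 70.1 and 70.1 CPM in OX. The 2 genotypes' libraries overlapped in each of these loci. For the other 6 loci, mean levels in WT and OX were 228 and 220.2 CPM for AT4G33560, 265 and 265 for AT1G33055, 337 and 301 for AT4G24110, 227 and 234 for AT3G27220, 406 and 347 for AT1G19530 and 155 and 146 for AT5G66985.

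Levels can be ordered between loci only per transcript length. In the authors' deposited table, which gives 1 FPKM value per group and no spread, CML38 and AT4G10270 were the highest of the 9 in WT at 1 h, at 872 and 867 FPKM, followed by AT1G19530 (833) and AT4G33560 (793). AT5G66985 (518), AT4G24110 (431) and AT5G10040 (369) were intermediate, and AT1G33055 (289) and AT3G27220 (175) the lowest. Mean CPM per kilobase of spliced length gave another order in the middle. AT4G24110 (339) was above AT4G33560 (299) there, and AT1G33055 (208) was near AT5G66985 (209) and above AT5G10040 (192). CML38, AT4G10270 and AT1G19530 were again the highest and AT3G27220 (107) the lowest. The cause of the disagreement was not tested. Before treatment the authors' table had AT1G19530 at 93.3 FPKM and AT5G10040 at 0.471, so the loci spanned a far wider range at 0 h than at 1 h.

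The contrast at 1 h compares no 0 h library, and it passed none of the 9 loci. It is not independent of those libraries or of the choice of the loci. The fit took its spread from all 24 libraries, and the rise at 1 h was known. The count was 0 higher and 0 lower in OX by edgeR's quasi-likelihood test at an adjusted p under 0.05, where 2.79% of all loci were higher and 2.9% lower. It was also 0 at an unadjusted p under 0.05 and 0 by DESeq2. The log2 differences ran from -0.23 (AT1G19530) to 0.08 (AT4G10270), with a median of -0.09 against -0.01 over all loci. The intervals were narrowest for AT3G27220 (0.05, 95% interval -0.12 to 0.21) and AT5G66985 (-0.09, -0.29 to 0.12). The widest was that of AT4G10270 (0.08, -0.56 to 0.71), which leaves out a difference of the size it had at 0 h but not smaller ones. AT4G24110, at 343, 327 and 340 CPM in WT and 321, 292 and 291 in OX, was the locus without overlap (-0.16, -0.44 to 0.12). The share of all loci without overlap at 1 h was not counted.

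**Figure D2:**
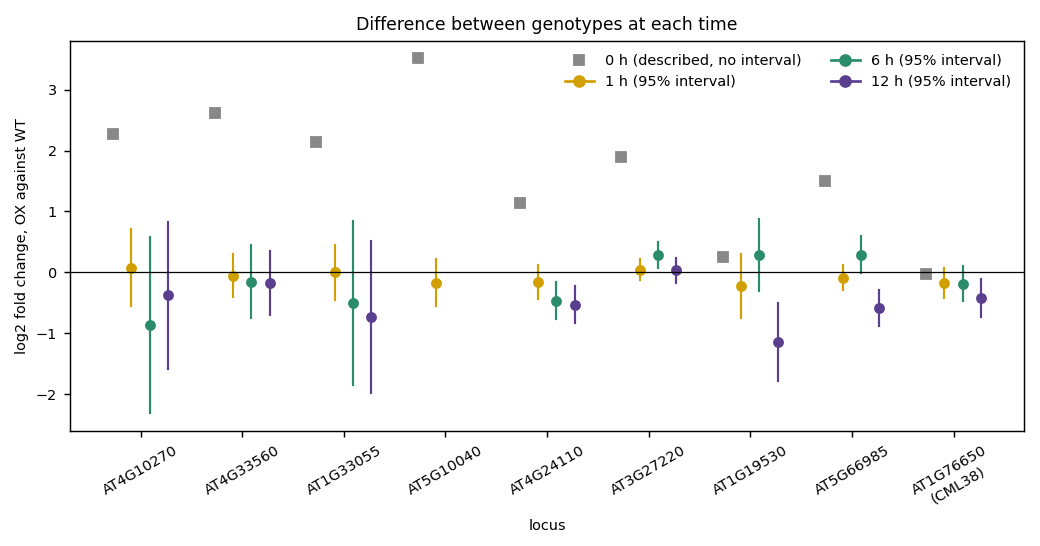
Difference between OX and WT for each locus, as log2 fold change, at 0 h (grey squares, described without an interval) and at 1, 6 and 12 h (circles with 95% intervals from the edgeR fit, 3 libraries per group). AT5G10040 is left out at 6 and 12 h, where it had at most 5 counts per library. Squares reach 3.51 at 0 h, whereas all circles at 1 h lie between -0.23 and 0.08.

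At 6 h all 9 loci stood far below their 1 h level in both genotypes, and several stood below the level from which they had started. The 1 h libraries are those in which the loci were known to be high, so neither the direction nor the size of the decline stands apart from the choice of the loci, and it is given as a description without a test. By edgeR's criterion 9 of 9 were lower in WT, where 34.4% of all loci were, and 9 of 9 in OX, where 33.5% were; AT5G10040 is counted there although its 1 h libraries brought it into the fit.

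AT1G33055 went from a mean of 265 CPM to 0.389, 0.389 and 0.658 CPM in the WT libraries and to 0.257, 0.381 and 0.302 in OX. The fitted log2 changes were -9.24 in WT and -9.74 in OX. AT4G10270 went to 0.962, 0.897 and 1.03 CPM in WT (log2 change -7.86) and to 0.532, 0.654 and 0.252 in OX (-8.81). Its relative AT4G33560 had log2 changes of -7.15 and -7.25. In all 3 loci no 6 h library came within 2 orders of magnitude of a 1 h library.

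AT5G10040 lost nearly all of its reads, with 5, 0 and 1 counts in WT at 6 h and 1, 0 and 0 in OX. Over the summed libraries the ratio of 1 h to 6 h was 1580 in WT (8135 against 6 counts, 95% interval 724 to 4300) and 6730 in OX (9404 against 1 count, 1210 to 266000); these intervals cover counting error only. The 2 intervals overlap. The log2 changes of AT5G66985 (-5.97 in WT and -5.59 in OX), CML38 (-5.69 and -5.70), AT3G27220 (-5.67 and -5.43) and AT1G19530 (-5.32 and -4.80) lay close together. AT4G24110 had the smallest decline, -3.57 in WT and -3.87 in OX, and was the only one of the 9 to keep a mean above 20 CPM at 6 h.

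**Figure D3:**
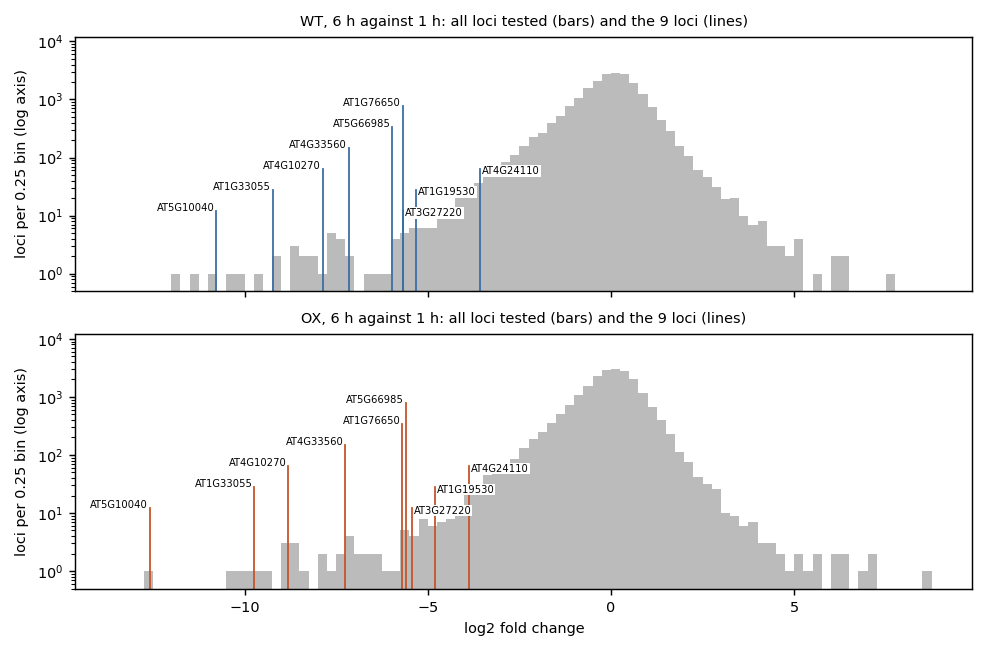
Change from 1 h to 6 h as log2 fold change in WT (upper) and OX (lower), for all 21015 loci tested (grey bars, number of loci per bin of 0.25 on a log axis) and for the 9 loci (labelled lines, whose height has no meaning). The 9 lines lie between -10.77 and -3.57 in WT and between -12.59 and -3.87 in OX, in the left tail of both distributions; the loci were chosen with their 1 h levels known.

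Set against their own 0 h libraries, the 6 h levels stood lower in OX than in WT. Such a comparison carries the 0 h difference between the genotypes, which was known when the loci were chosen. The 6 h levels themselves differed in direction. AT3G27220 averaged 4.42 CPM in WT and 5.42 in OX, and AT4G24110 averaged 28.35 and 20.53. In WT, 5 of 9 loci were at least 2-fold below 0 h at 6 h (6.95% of all loci), and in OX 8 of 9 (6.08%), as a description. The mean at 6 h as a share of the mean at 0 h was 0.202 in WT and 0.0201 in OX for AT4G10270, and 0.511 and 0.166 for AT3G27220. For AT4G24110 it was 1.82 in WT and 0.597 in OX, so this locus ended above its start in WT and below it in OX. CML38, which started level, was at 0.255 and 0.226. At 12 h all 9 loci were at least 2-fold below 0 h in OX (10.1% of all loci), and 5 of 9 in WT (11.2%).

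No difference between the genotypes in the decline from 1 h to 6 h passed the test. Of the 9 loci, 0 were higher and 0 lower by edgeR (0.233% and 0.138% of all loci), 1 had an unadjusted p under 0.05 with a higher value in OX (4.84% of all loci) and 0 passed by DESeq2. The locus with the unadjusted p was AT5G66985, whose decline was smaller in OX by 0.38 ± 0.18 (SE, n = 3; adjusted p = 0.52 by edgeR). The 2 AT4G10270 declines differed by -0.95 ± 0.76 and those of CML38 by -0.01 ± 0.18.

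Other genes moved over the same hours. All 8 leaf markers fell between 1 h and 6 h in each genotype, with medians of -2.18 in WT and -2.17 in OX, and their summed level fell from 35490 to 44420 CPM at 1 h to 9622 to 12000 at 6 h in WT. Of the 10 touch and wound genes 8 fell and 2 rose in each genotype; LOX3, a lipoxygenase of jasmonate synthesis, changed by -3.42 ± 0.14 in WT, and TCH2, a calmodulin-like touch gene, by 1.05 ± 0.11. Of the 12 root markers 5 rose and 2 fell in each genotype. The dependence of counts on length also shifted, from slopes of -0.139 to -0.0576 in the WT 1 h libraries to 0.042 to 0.179 at 6 h. With each library's length trend removed, all 9 loci again stood lower at 6 h in both genotypes. The part of the other changes in the decline was not tested.

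At 6 h none of the 9 loci passed between the genotypes by edgeR (0 higher and 0 lower, against 0.857% and 0.661% of all loci). The unadjusted p was under 0.05 for 2 loci, 1 lower and 1 higher in OX (6.85% and 7.4% of all loci), and 0 passed by DESeq2. The 2 were AT4G24110, at 28.8, 29.1 and 27.2 CPM in WT and 20.9, 21.7 and 19.0 in OX (-0.46 ± 0.14, adjusted p = 0.11 by edgeR, n = 3), and AT3G27220, at 4.79, 4.44 and 4.04 CPM in WT and 5.35, 5.66 and 5.24 in OX (0.28 ± 0.10, adjusted p = 0.19 by edgeR, n = 3). The libraries did not overlap in either, and the directions were opposite. AT4G10270 and AT1G33055, at under 1.1 CPM, had intervals of -2.32 to 0.58 and -1.85 to 0.84, so a 2-fold lower level in OX lay within both. In both loci every OX library was below every WT library. How many of all loci lacked overlap at 6 h was not counted. The fit took its spread from all 24 libraries, among them the uneven WT libraries at 0 h. Their part in the width of these intervals was not tested.

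At 12 h 1 of the 9 loci was lower in OX by the edgeR test (0.723% of all loci were lower) and 0 were higher (0.923%). It was AT5G66985, an unknown protein of 83 amino acids, at 3.77, 3.56 and 4.03 CPM in WT and 2.63, 2.47 and 2.36 in OX, with no overlap. Its log2 difference was -0.58 ± 0.14 (SE, n = 3; adjusted p = 0.037 by edgeR). The call did not pass when any 1 of the 6 libraries was left out (adjusted p = 0.067 to 0.15 by edgeR), without the 3 libraries of unusual length trend (0.09), or with the length trend removed (0.073, log2 difference -0.42).

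Further loci were near the threshold at 12 h. An unadjusted p under 0.05 with a lower value in OX was found for 4 of 9, against 9.58% of all loci. DESeq2 passed 3 of 9 as lower, against 1.97% of all loci, and a fit of only the 12 h libraries passed 4 of 9 as lower, against 2.89%. AT1G19530 was at 10.4, 9.58 and 10.7 CPM in WT and at 5.25, 3.23 and 6.12 in OX (-1.14 ± 0.31, adjusted p = 0.061 by edgeR, n = 3). AT4G24110 was at 22.1, 22.9 and 23.3 CPM in WT and 16.0, 15.0 and 16.4 in OX (-0.53 ± 0.15, adjusted p = 0.064 by edgeR, n = 3). CML38 was at 6.24, 5.89 and 6.04 CPM in WT and 4.44, 4.75 and 4.29 in OX (-0.42 ± 0.15, adjusted p = 0.14 by edgeR, n = 3). In each, the highest OX library was below the lowest WT library. The share of all loci with such a gap was not counted at 12 h. At 0 h it was 19.6% with OX higher. For AT3G27220 the log2 difference was 0.03, a sign that turned to -0.01 with the length trend removed.

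The summed level of the root markers was also lower in OX at the late times. At 12 h their summed level ran from 198 to 209 CPM in WT and from 158 to 172 in OX, with no overlap. Of the 12 root markers 2 passed by edgeR, both lower in OX, the root-hair expansins EXPA7 (-0.73 ± 0.12, adjusted p = 0.0027 by edgeR, n = 3) and EXPA18 (-0.66 ± 0.12, adjusted p = 0.0042 by edgeR, n = 3). At 6 h the sums were 167 to 199 CPM in WT and 132 to 157 in OX, and PRP3 passed as lower (-0.62 ± 0.15, adjusted p = 0.04 by edgeR, n = 3). Not every root marker was lower: SCR had a 12 h difference of 0.08 ± 0.10 (adjusted p = 0.69 by edgeR, n = 3). No root marker was at 0, and their part in the lower 12 h levels of the 9 loci was not tested.

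From 6 h to 12 h the loci took different paths. In WT 3 of 9 rose (26.4% of all loci rose) and 1 fell (26.5%). AT3G27220 rose from 4.79, 4.44 and 4.04 CPM to 6.24, 6.72 and 5.65 (0.48 ± 0.10, adjusted p = 0.00046 by edgeR, n = 3), and AT5G66985 rose from 2.24, 2.40 and 3.01 CPM to 3.77, 3.56 and 4.03 (0.60 ± 0.14, adjusted p = 0.0014 by edgeR, n = 3). AT4G33560 rose by 0.70 ± 0.27 (adjusted p = 0.031 by edgeR, n = 3), a call that did not pass without either of WT 6 h replicates 1 and 2 or WT 12 h replicates 2 and 3 (0.061 to 0.092), nor with the length trend removed (0.3). The AT5G66985 call had an adjusted p of 0.054 with the length trend removed. CML38 went on falling, from 8.36, 10.3 and 8.89 CPM to 6.24, 5.89 and 6.04 (-0.61 ± 0.15, adjusted p = 0.0015 by edgeR, n = 3). These shares are below or near those of all loci.

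In OX 3 of 9 fell between 6 h and 12 h (17.7% of all loci fell) and 0 rose (20.2%). CML38 fell again, from 8.29, 9.34 and 6.30 CPM to 4.44, 4.75 and 4.29 (-0.84 ± 0.15, adjusted p = 0.00011 by edgeR, n = 3). AT1G19530 went from 15.9, 14.8 and 5.39 CPM to 5.25, 3.23 and 6.12 (-1.43 ± 0.30, adjusted p = 0.00077 by edgeR, n = 3), where OX 6 h replicate 3 lay within the range of the 12 h libraries. AT4G24110 fell by 0.39 on the log2 scale (adjusted p = 0.039 by edgeR, n = 3), a call that did not pass without any 1 of OX 6 h replicates 1 and 2 and the 3 OX 12 h libraries (0.058 to 0.12). Beside the count of 0 that rose, an unadjusted p under 0.05 was found for AT4G33560 (0.68 ± 0.27) and AT3G27220 (0.23 ± 0.10), where 24.2% of all loci were higher by that criterion. DESeq2 passed AT4G33560 (0.70, adjusted p = 0.016), where it passed 20.3% of all loci as higher.

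The genotypes' changes from 6 h to 12 h were also compared directly. By edgeR 0 of 9 passed (0% of all loci higher and 0.019% lower), with 2 lower at an unadjusted p under 0.05 (5.85% of all loci) and 1 lower by DESeq2 (0.178%). AT5G66985 rose in WT and had a change of -0.27 in OX, a difference of -0.87 ± 0.20 (adjusted p = 0.19 by edgeR, n = 3; 0.038 by DESeq2). AT1G19530 had a change of 0.00 in WT and fell in OX, a difference of -1.43 ± 0.42 (adjusted p = 0.33 by edgeR, n = 3).

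Reads of neighbouring and related genes could be shared with these loci, so those genes were examined. AT5G10040 lies with all of its 435 nucleotides inside the gene of the transcription factor TGA4 (AT5G10030), on the opposite strand and with 0 nucleotides of exon overlap. TGA4 stood at 24.5 ± 1.67 CPM at 0 h and 25.7 ± 2.79 at 1 h in WT (SD, n = 3), a difference within the spread between libraries. AT1G33055 shares 123 exon nucleotides with AT1G33050 on the same strand, whose WT means were 56.2, 104, 30.5 and 28.2 CPM at the 4 times. AT4G10270 overlaps 2 genes on the opposite strand, AT4G05775 over 377 of its 477 nucleotides and AT4G10280 over 86 exon nucleotides. AT4G05775 was not among the loci counted. AT4G10280 averaged 8.55 CPM in WT at 6 h, where AT4G10270 averaged 0.965. No source used here names the counting tool or its use of strand, so the levels of AT1G33055 and AT4G10270 in those stretches are uncertain.

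AT4G10265, the neighbour of AT4G10270 and a member of the same wound-responsive family, had 72.2% identical coding bases. The longest run the 2 loci share is 31 nucleotides, shorter than a read of 75. It stood at 0.673, 78.0, 0.0706 and 0.105 CPM on average in WT at 0, 1, 6 and 12 h, and at 6.21 CPM in OX at 0 h. Like AT4G10270, AT4G10265 was highest at 1 h and stood higher in OX than in WT at 0 h. At 6 h it had only 2, 2 and 3 counts in WT and 5, 6 and 3 in OX. Its 6 h mean was higher in OX (0.135 CPM), where that of AT4G10270 was lower. The fitted log2 change of AT4G10265 from 1 h to 6 h in WT was -10.46, a description that rests on those few counts. The family was not uniform: AT4G05070 went only from 45.9 to 82.5 CPM between 0 h and 1 h in WT, and AT4G28240 from 34.7 to 34.9.

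AT5G65207, taken as a relative of AT5G10040 without a search of other genes, had 55.3% identical coding bases and a longest shared run of 15 nucleotides. It went from 11.4 CPM at 0 h to 446 at 1 h in WT and back to 2.42 at 6 h, and stood at 26.8 CPM in untreated OX. CML38 had 73.6% identical coding bases with its neighbour AT1G76640, another calmodulin-like gene, which was far lower, at 8.84 ± 2.47 CPM in WT and 3.21 ± 0.534 in OX at 1 h (SD, n = 3). That gene was lower in OX at 1 h (-1.5 ± 0.20, adjusted p = 4e-05 by edgeR, n = 3), where the CML38 difference did not pass (-0.18 ± 0.12, adjusted p = 0.4 by edgeR, n = 3). AT1G76640 too was highest at 1 h, averaging 0.96 CPM at 0 h, 8.84 at 1 h and 0.488 at 6 h in WT. Of the other CML38 relatives, AT3G01830 averaged 8.01 CPM at 0 h and 40.35 at 1 h in WT, and 2.81 and 41.5 in OX. CML37 was lower in untreated OX (4.21 against 17.3 CPM), and CML41 was low at 1 h, at 2.12 CPM in WT against 19.5 at 0 h.

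**Figure D4:**
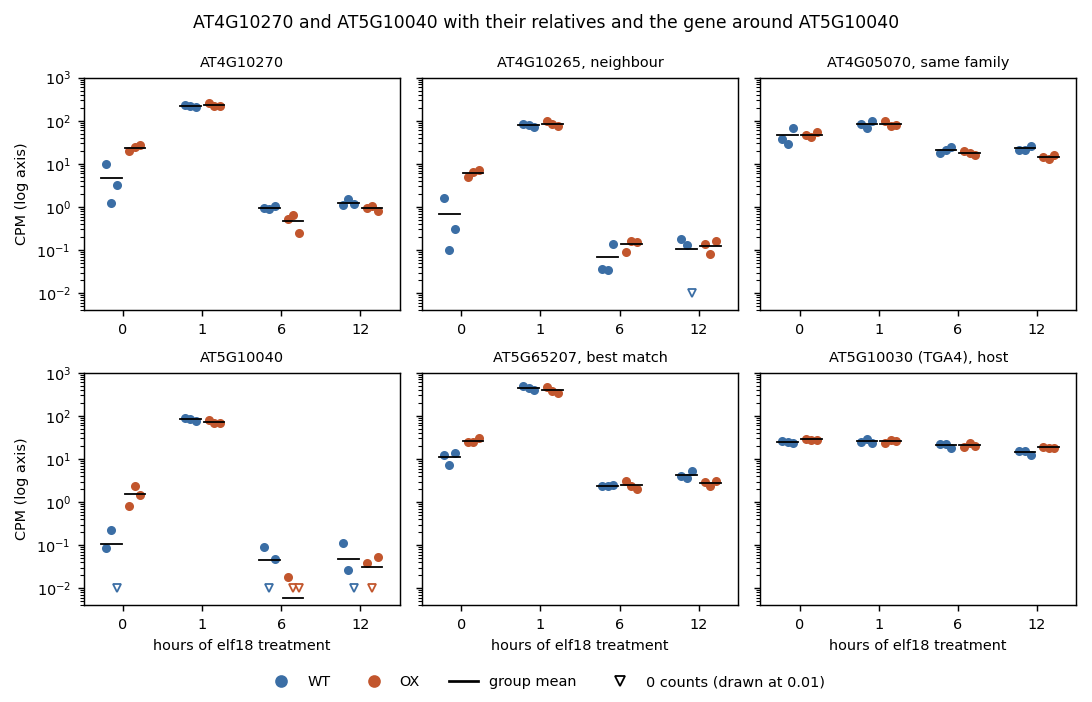
Levels in each library, in CPM on a log axis, of AT4G10270 with its neighbour AT4G10265 and its relative AT4G05070 (upper) and of AT5G10040 with its relative AT5G65207 and the surrounding gene TGA4 (lower). Points are libraries, bars group means of 3 libraries and open triangles libraries with 0 counts, drawn at 0.01. AT4G10265 and AT5G65207 peak at 1 h as the 9 loci do, whereas TGA4 stays between 12.1 and 29.1 CPM in all 24 libraries.

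The better-known low-oxygen genes gave a frame for the 9 loci. A list of 42 such genes was used, itself drawn up with earlier results of these libraries known. From 1 h to 6 h all 42 were lower in each genotype, where 34.4% of all loci were in WT and 33.5% in OX, with median log2 changes of -3.73 and -3.38. In untreated OX 11 of the 42 were at least 2-fold higher (1.11% of all loci), with a median of 0.53. At 1 h 6 of 42 passed by edgeR, all lower in OX, where 2.9% of all loci were lower. At 6 h 1 was higher and 1 lower (0.857% and 0.661% of all loci), and at 12 h 1 passed, lower in OX (0.723%). The 3 of lowest adjusted p at 1 h were ETR2, an ethylene receptor (-0.48 ± 0.08), AT2G15880 (-1.21 ± 0.25) and UKL3 (-0.32 ± 0.07). The 1 lower at 6 h was PHI-1 (-0.77 ± 0.14). The 1 lower at 12 h was ERF71, a group VII factor (-1.17 ± 0.29, adjusted p = 0.038 by edgeR, n = 3).

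Their regulators and enzymes stood near the 9 loci in timing. PDC1 (AT4G33070), the pyruvate decarboxylase of fermentation, averaged 8.88 CPM at 0 h, 1372 at 1 h and 3.70 at 6 h in WT. ADH1 (AT1G77120) averaged 22.8, 897 and 11.4, and LBD41 (AT3G02550) 28.7, 1559 and 4.01. These 3 had the early peak of the 9 loci. None of PDC1, ADH1, LBD41, HRA1 (AT3G10040), PCO1 (AT5G15120) and PCO2 (AT5G39890) passed between the genotypes at 1 h by edgeR, with log2 differences from -0.23 to 0.09. PCO2 was higher in OX at 6 h (1.00 ± 0.25, adjusted p = 0.042 by edgeR, n = 3), and both PCO1 (1.33 ± 0.23) and PCO2 (1.18 ± 0.25) rose from 6 h to 12 h in WT, as AT3G27220 did. The group VII factors were not alike. ERF71 and ERF73, both in the list of 42, averaged 4.21 and 14.6 CPM at 0 h and 67.9 and 134 CPM at 1 h in WT. Of RAP2.12, RAP2.2 and EBP, further group VII factors, and ATE1, ATE2 and PRT6, enzymes of their degradation, none stood 2-fold away from 0 h at 1 h in either genotype. In WT 1 rose and 2 fell from 1 h to 6 h, EBP by -1.37 ± 0.14. PRT6 alone passed between genotypes at 1 h (-0.42 ± 0.12, adjusted p = 0.039 by edgeR, n = 3). Its OX libraries stood at 47.85, 63.65 and 66.54 CPM. The lowest is replicate 1, a library of unusual length trend, whose part in the call was not tested.

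The loci most like each of the 9 were found by the Pearson correlation of log2 CPM over the 24 libraries. The search covered the 17692 loci outside the 9 whose mean log2 CPM was at least 1. The libraries fall into 8 groups dominated by the 1 h peak, so these values describe a shared time course. AT4G10270 was closest to LBD41 (r = 0.997) and HRA1 (0.991), and AT1G33055 to HRA1 (0.992). AT3G27220 was closest to PCO2 (0.996) and PCO1 (0.995), AT4G33560 to PCO1 (0.987), AT5G10040 to PDC1 (0.988) and AT5G66985 to HB1 (0.996). Within the 9, AT4G33560 had a higher value with AT3G27220 (0.993) than with PCO1. AT5G10040 had 0.988 with both AT4G33560 and AT3G27220, level with PDC1. The remaining 3 were closest to loci outside the low-oxygen list. AT4G24110 was closest to AT3G13310 (0.994), AT1G19530 to AT3G24070 (0.984) and CML38 to AT3G15356 (0.992). This split rests in part on near ties. CML38 also had 0.992 with AT1G74940, which is in the list, and AT1G33055 also had 0.992 with AT2G46550, which is not. LBD41 had the unevenness of AT4G10270 in untreated WT, at 62.3, 6.83 and 17.0 CPM, and HRA1 likewise, at 31.5, 3.61 and 6.88.

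Among themselves the 9 loci were less alike once the 1 h libraries were set aside. Over the other 18 libraries the correlation between pairs of loci ran from 0.231, for AT4G24110 and CML38, to 0.951, for AT4G10270 and AT1G33055. CML38 and AT1G19530, the loci without a 2-fold difference at 0 h, had 0.935 with each other. AT4G24110 was the least like the rest, with values of 0.231 to 0.643, and was also the locus with the smallest decline from 1 h and the one whose 6 h level in WT was above 0 h in every library.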

How the data were processed

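Polyadenylated RNA was made into stranded libraries and read in single reads of 75 cycles, per the labels' protocols. The authors deposited raw read counts per locus for each library and FPKM values per group; the submitters' processing notes name TopHat2 2.0.8, Cufflinks 2.1.1, Cuffdiff, DESeq2 and TAIR10, with no counting tool or strand setting. From the counts, edgeR 4.0.16 (R 4.3.3, TMM scaling, at least 10 counts by filterByExpr) was fitted to 21015 loci with 8 group means over 24 libraries, and quasi-likelihood p-values were adjusted over all loci by Benjamini-Hochberg with a threshold of 0.05. SE is the log2 change divided by the root of F. DESeq2 1.42.0 and the other settings of the closing section served as alternatives, and the fit was tested on simulated data. FPKM has no spread. Sequences come from RefSeq TAIR10.1, and 21330 of 21407 loci matched its annotation. The members and gene lists were chosen with earlier results of these data known. The text names all 9 loci, 6 central low-oxygen genes, up to 3 genes of lowest adjusted p and 1 in the opposite direction per list, the closest loci by correlation, and neighbours or relatives. Same-numbered libraries deviated together in 1 of 28 pairs of groups, WT and OX at 1 h (correlations 0.223, 0.13 and 0.125), so numbers were taken to pair libraries there only, from the data and not the labels; with the replicate block 0 of 9 loci passed at 1 h, as without it. Replicates are called biological in the labels, and p-values measure the spread between them.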

Additional observations from a re-analysis of the deposited data

Results flagged for a closer look

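For 2 loci a later time stood above an earlier one in WT and below it in OX, with no overlap between the libraries of those times in either genotype. How many of all loci did so was not counted. AT4G24110 stood above 0 h at 6 h in WT (log2 change 0.87) and below it in OX (-0.73), a difference of -1.6, and at 12 h likewise (0.55 and -1.12), a difference of -1.67. AT5G66985 stood above 0 h at 12 h in WT (0.5) and below it in OX (-1.59), a difference of -2.09. These 3 differences use the 0 h libraries and were not tested. They include the 0 h difference between the genotypes that was known when the loci were chosen, 1.14 for AT4G24110 and 1.51 for AT5G66985. From 6 h to 12 h, AT5G66985 changed by 0.6 in WT and -0.27 in OX, a difference of -0.87 that had an adjusted p of 0.19 by edgeR and 0.038 by DESeq2.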

How the results depend on the processing

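All 9 loci were lower at 6 h than at 1 h in both genotypes, as their choice made likely, and 0 passed between genotypes at 1 h and at 6 h, under every alternative run. At 12 h the count between genotypes was 1. It was 4 with only the libraries compared, 3 by DESeq2 and 0 without any single library. The count was also 0 without the 3 libraries of unusual length trend and 0 with the length trend removed. From 6 h to 12 h in OX it was 3, and 5 with only the libraries compared or with the length trend removed. For the difference between genotypes in that change it was 0, and 1 by DESeq2. Signs turned for the following log2 differences, none of which had passed. Between genotypes at 1 h, AT1G33055 (-0.0) was 0.02 with no filter, 0.0 with the replicate block, 0.02 with only the libraries compared and -0.03 to 0.06 without single libraries. AT4G10270 (0.08) was -0.0 without the 3 libraries, -0.09 with the length trend removed and -0.0 to 0.14 without single libraries. AT4G33560 (-0.05) was 0.03 without the 3 libraries and -0.09 to 0.03 without single ones; at 6 h (-0.16) it was 0.08 and -0.37 to 0.07. AT3G27220 at 12 h (0.03) was -0.02, -0.01 with the length trend removed and -0.02 to 0.09. From 6 h to 12 h, AT1G19530 in WT (0.00) was -0.02, -0.25 with the length trend removed and -0.27 to 0.16, and AT1G33055 in OX (0.08) was -0.13 and -0.25 to 0.43. The cause was not tested. Over all loci the number passing at 1 h was 1197 (472 to 1488 over the alternatives), at 6 h 319 (104 to 572) and at 12 h 346 (79 to 1016). Outside the 1 h pair of groups, no pair had all 3 same-number correlations above 0.1, yet 15 of 24 libraries were most like a library of their own number, a hint from the data and not from the design. OX at 6 h and OX at 1 h came close to that cut, at 0.544, 0.257 and 0.098, so the choice of pairs rests on it. With the replicate block the counts of the 9 loci were the same in each comparison, 0 at 1 h and 1 at 12 h, while over all loci the count at 12 h rose to 562 and that of the difference in the 1 h to 6 h change from 78 to 131. Low levels and wide fitted intervals at 6 h and 12 h limit what could be detected for AT4G10270, AT1G33055 and AT5G10040.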
